A study of Mus musculus with 24 samples.

Results

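AP-1 is a family of transcription factors that bind DNA as pairs of basic leucine zipper proteins. The 9 genes described here are Jun, Junb, Jund, Fos, Fosb, Fosl1, Fosl2, Batf and Maff, taken by name. Every probe set annotated to one of them alone was used, which gave 13 of the 34945 single-gene probe sets and 9 of 18193 genes. The arrays came from 12 primary B-cell lymphomas of Emu-Myc mice, in which the Myc oncogene is switched on throughout the B-cell lineage. All cells, controls included, had received Bcl2, a protein that blocks apoptosis, from a retrovirus and had been selected with puromycin, and all grew in culture on gamma-irradiated NIH 3T3 mouse fibroblasts. Each lymphoma was profiled once untreated and once after 5 days with 0.05 µg/ml Adriamycin (ADR, doxorubicin), a drug that damages DNA, which gave 12 arrays in each group and 12 matched pairs. No untreated array is recorded after 5 days, so time in culture and the drug cannot be told apart. The labels give no age or sex of the mice, and no array of feeder cells alone was analysed here.

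Jun proteins pair with each other or with Fos proteins, and Fos proteins need a Jun partner to bind DNA. Fos, Fosb, Jun and Junb are immediate early genes, switched on within minutes of a signal through MAP kinases, whereas Fosl1 follows later and is itself an AP-1 target. Batf lacks an activation domain and acts in lymphoid cells with Jun proteins and interferon regulatory factors. Maff, a small Maf protein, also lacks an activation domain and pairs mainly with the Nrf family. In fibroblasts AP-1 is known for the genes of growth, matrix breakdown and inflammation, and the senescence program of arrested cells shares many of those genes.

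AP-1 binds the letters TGACTCA, and the related CRE element is TGACGTCA. RefSeq windows of GRCm38.p6 were found for 8 of the 9 genes, 10 windows in all because Maff has several start sites. In the 250 bases before each start, both strands were searched for TGACTCA, TGACGTCA, the Jun promoter's variant TGACATCA and TGACG, the first 5 letters of the CRE element, which lie inside TGACGTCA. The windows of Jun, Fos and the second Maff start are shown because these 3 genes rose after ADR and their windows hold a match. Each is the last 150 bases before the start, 5′ to 3′ on the gene's own strand, and capitals mark the matches.
Jun, minus strand, chr4:95052223-95052372: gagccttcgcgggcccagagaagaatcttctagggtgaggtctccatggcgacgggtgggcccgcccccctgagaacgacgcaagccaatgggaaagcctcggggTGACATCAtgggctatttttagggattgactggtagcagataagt
Fos, plus strand, chr12:85473740-85473889: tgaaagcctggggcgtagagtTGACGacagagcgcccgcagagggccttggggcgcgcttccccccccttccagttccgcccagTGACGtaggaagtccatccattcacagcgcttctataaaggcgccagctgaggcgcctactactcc
Maff, plus strand, chr15:79347370-79347519: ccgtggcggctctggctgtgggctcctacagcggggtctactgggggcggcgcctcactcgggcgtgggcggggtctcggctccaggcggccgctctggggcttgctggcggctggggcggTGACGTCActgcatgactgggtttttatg
The Jun match TGACATCA begins at position -45 from the start; such a variant in the Jun promoter is known from the literature as a place where AP-1 acts on its own gene. Of all 32851 promoter windows 2.93% hold these letters. In Fos, TGACG begins at -129 and at -66, and 17.8% of all windows hold it. The full TGACGTCA of Maff begins at -29, and 1.55% of all windows hold it. The letters TGACTCA, present in 4.46% of all windows, were in none of the 10 windows of these genes. Matches were not limited to genes that rose: TGACG was also in the windows of Junb, Fosb and Batf, which were not called, and the third Maff window held TGACATCA and TGACG. The windows of Jund, of the first Maff start and of Fosl2, which rose, held none of these letters.

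Values are log2 expression per probe set, and a change is ADR minus untreated within a lymphoma. A level at or below the highest array median, 4.47, counts as near the floor, and no fold is given for a gene with a group mean there. Correlations between any 2 arrays lay between 0.908 and 0.992. Marker genes of several cell types gave signal. The B-cell gene Cd79a had a mean of 10.63 in untreated arrays, the macrophage gene Csf1r 8.41 and the fibroblast collagen gene Col1a2 5.37. After ADR these were 9.84, 10.33 and 8.58. Other markers were weaker, such as Col1a1 with an untreated mean of 4.10. In untreated arrays 12 of 28 fibroblast, 13 of 20 macrophage and 9 of 9 B-cell list genes had a mean above the floor. After ADR these counts were 25, 15 and 9. In such bulk RNA, more or fewer cells of a type and more or less RNA per cell cannot be told apart.

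Fosl1, Fosl2, Fos, Jun and Maff rose after ADR, and none of the 9 genes fell. By limma with the lymphoma as a block, adjusted by the Benjamini-Hochberg method over 18193 genes, 5 of 9 were called higher at an adjusted p under 0.05, while 13.7% of all genes were called higher. A further 3, Junb, Fosb and Jund, had mean changes above 0 that did not pass, and Batf had a mean change of -0.14. The median change of the 9 was 1.02, beside -0.01 for all genes. In GRCm38.p6 the called genes lie at chr4:95049036-95052222 (Jun), chr12:85473890-85477274 (Fos), chr19:5447698-5455938 (Fosl1), chr5:32136472-32157840 (Fosl2) and chr15:79346621-79359078 (Maff). Every member but Fosb had a probe set above the floor on enough arrays to pass a filter for weak signal, so 8 of 9 passed it. Fosl1 passed only through its ADR arrays, with 11 of them and 0 untreated arrays above the floor.

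**Figure D1:**
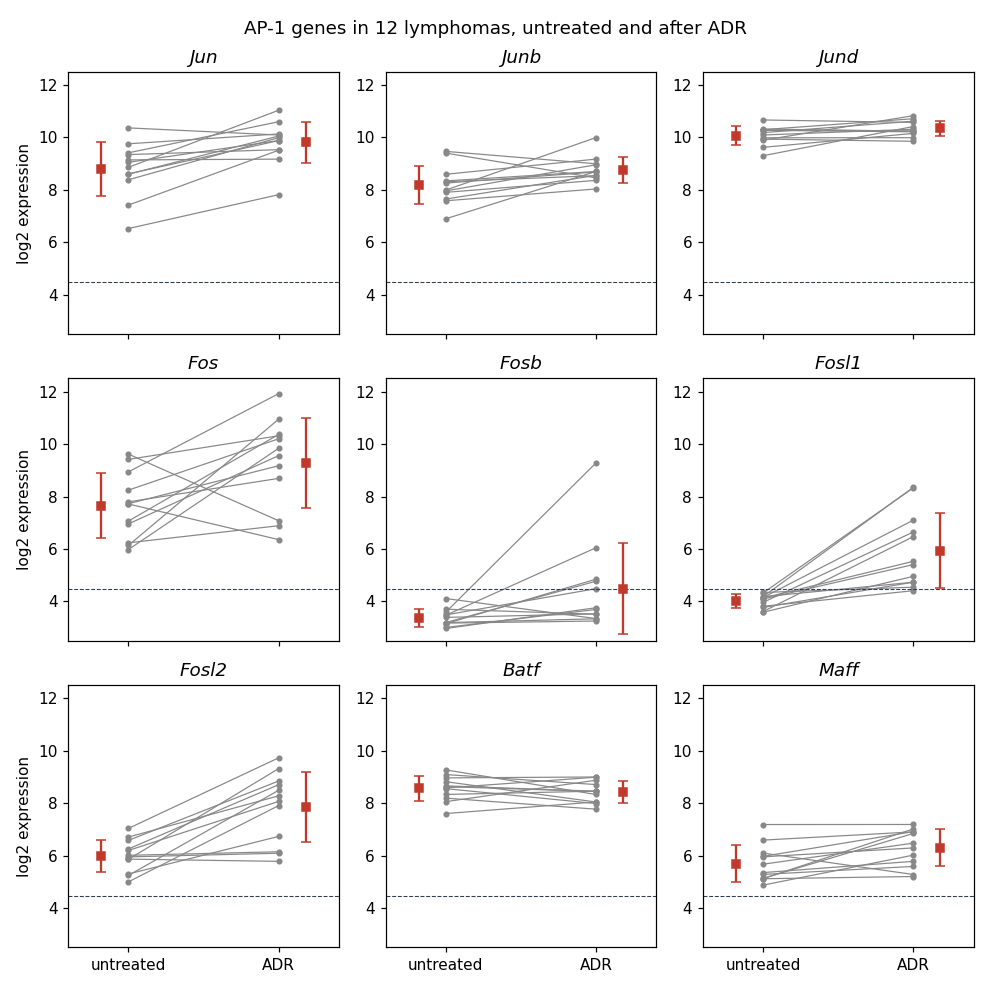
Log2 expression of the 9 AP-1 genes in 12 lymphomas, untreated and after ADR; grey lines join the arrays of a lymphoma, red squares with bars are the mean and SD, and the dashed line is the highest array median. Fosl1 starts between 3.59 and 4.34 in every lymphoma and ends between 4.41 and 8.35, while Fos goes down in 2 lymphomas and up in 10.

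Among the Fos proteins, Fosl1 (FRA-1) was the member that rose in every lymphoma, by its probe set with the higher mean. Its untreated values ran from 3.59 over a median of 4.11 to 4.34, all near the floor, and its ADR values from 4.41 over 5.47 to 8.35. The groups did not overlap, which held for 0.033% of all genes in the upward direction and 0.297% in either. No other member shared this. The separation was narrow and rested on weak signal. The highest untreated value (4.34 in 1467) and the lowest ADR value (4.41 in 2949) were both near the floor. The change was 1.92 (SE 0.35, 95% interval 1.16 to 2.68, adjusted p = 0.00131 by limma), higher in 12 of 12. Of all 18193 genes, 3.01% were both called and higher in 12 of 12. The Fosl1 change ran from 0.20 in 1467 to 4.01 in 403 and 4.17 in 5560. The second Fosl1 probe set also rose on average, with a smaller change of 1.03 (adjusted p = 0.0125 by limma over probe sets). It was higher in 11 of 12, with 1467 at -0.05, and its groups overlapped. Only 7 of its ADR arrays lay above the floor.

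Fosl2 (FRA-2) had untreated values of 5.00 to 7.03 with a median of 5.98, and ADR values of 5.78 to 9.73 with a median of 8.17. It rose 3.58-fold (log2 change 1.84, SE 0.32, adjusted p = 0.000922), above its untreated partner in 11 of 12 pairs, with 1570 at -0.08. In 9 lymphomas the change was over 1, and the other 3 (1467, 1570 and 3802) stayed between -0.08 and 0.14. That probe set was designed from an EST. The other Fosl2 probe set, designed from the RefSeq transcript, went from 5.34 ± 0.28 to 5.42 ± 0.40 (SD, n = 12), a change of 0.09 (95% interval -0.24 to 0.42, adjusted p = 0.747 by limma over probe sets). The 2 Fosl2 probe sets thus disagree, and the call rests on one of them.

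Fos itself was the most uneven member. Its untreated values ran from 5.98 over 7.72 to 9.62 and its ADR values from 6.36 over 9.70 to 11.92, and the groups overlapped. The mean rise was 3.09-fold (log2 change 1.63, SE 0.55, adjusted p = 0.042), higher in 10 of 12. It went from 9.62 down to 7.08 in lymphoma 1467 and from 7.72 down to 6.36 in 2949. In lymphomas 3594, 3769 and 7050 the change was 4.81, 3.86 and 3.30. Leaving out any one of 9 lymphomas (403, 2581, 3594, 3769, 3802, 5560, 5766, 6054 or 7050) ended the call, with adjusted p up to 0.0922.

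Fosb was near the floor on every untreated array, with values of 2.97 to 4.11 and a median of 3.29. After ADR 5 arrays lay above the floor, and the values ran from 3.26 over 3.73 to 9.28. The highest came from lymphoma 5560, a change of 5.69, followed by 2581 at 2.58. The mean change of 1.12 (SE 0.44) did not pass (adjusted p = 0.0808). Without 5560 it was 0.70, and without 1467, where the change was -0.76, it passed at 1.29 (adjusted p = 0.0495).

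Among the Jun proteins, which supply the partner that Fos proteins need, Jun was called and its relatives were not. Jun had untreated values from 6.53 over 8.96 to 10.36 and ADR values from 7.82 over 9.94 to 11.04. It rose 2.03-fold (log2 change 1.02, SE 0.21, adjusted p = 0.00273), higher in 11 of 12, with 2949 at -0.27. The second Jun probe set gave 1.92-fold (log2 change 0.94, adjusted p = 0.000749 over probe sets). The lymphoma with the lowest untreated Jun, 1570, also had the lowest value after ADR.

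Junb, which can oppose Jun on growth genes, went from 8.20 ± 0.73 to 8.77 ± 0.49 (SD, n = 12). Its untreated values ran from 6.90 to 9.47 and its ADR values from 8.04 to 10.00, so the groups overlapped, and 10 of 12 lymphomas were higher. The change of 0.57 (95% interval 0.10 to 1.03) had an adjusted p of 0.0698 by limma. The change was -0.94 in 1467 and -0.47 in 2949, the same lymphomas in which Fos was lower, and without 1467 or without 2949 it passed (adjusted p down to 0.0159). Jund, the Jun protein usually present in resting cells, was high on every array, from 9.30 to 10.67 untreated and from 9.85 to 10.83 after ADR. Its change of 0.28 (95% interval 0.03 to 0.52, adjusted p = 0.095 by limma) was above 0 in 7 of 12 lymphomas. The second Jund probe set was near the floor on all 24 arrays.

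Batf and Maff bind beside or with other partners. Batf had untreated values from 7.60 over 8.60 to 9.27 and ADR values from 7.77 over 8.45 to 8.995. It was higher in 5 lymphomas and lower in 7, and the change of -0.14 had a 95% interval of -0.44 to 0.17 (adjusted p = 0.544 by limma). Maff ran from 4.87 over 5.51 to 7.18 untreated and from 5.20 over 6.38 to 7.19 after ADR. It rose 1.51-fold (log2 change 0.60, SE 0.20, adjusted p = 0.0396), higher in 11 of 12, with a change of -0.82 in 1467. Leaving out any one of 8 lymphomas (403, 2581, 3594, 3769, 5560, 5766, 6054 or 7050) ended the Maff call.

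**Figure D2:**
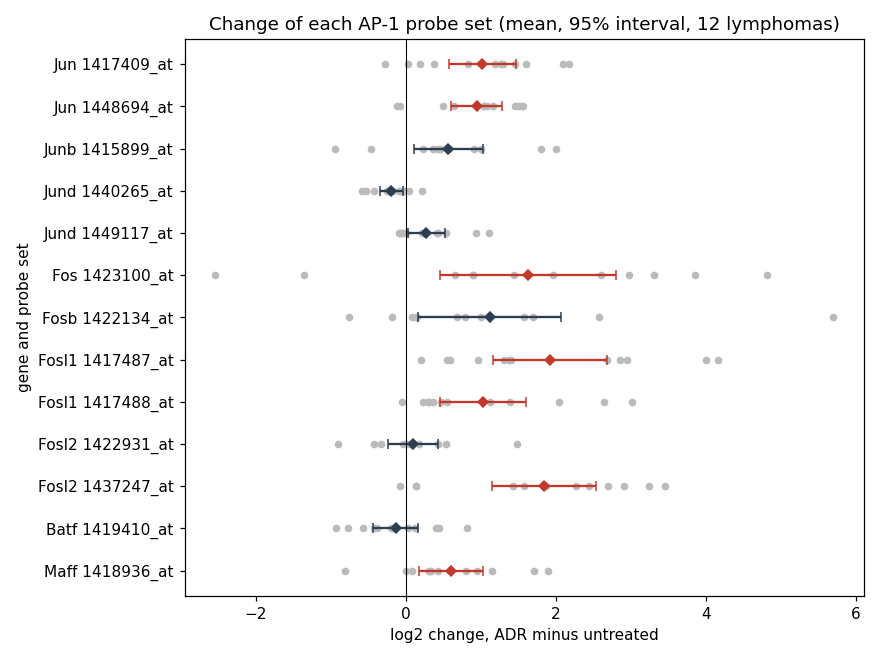
Log2 change, ADR minus untreated, of each of the 13 AP-1 probe sets; grey points are lymphomas, diamonds with bars are the mean and 95% interval from limma, red where the adjusted p over probe sets is under 0.05. The 2 Fosl2 probe sets differ, at 0.09 and 1.84, while both Jun and both Fosl1 probe sets lie above 0.

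Over the 13 probe sets, 7 were called higher and 0 lower by limma (11 at an unadjusted p under 0.05), beside 11.3% of all single-gene probe sets called higher. Jun, Fosl1 and Fosl2 kept their call when each lymphoma was left out in turn. Without the replicate block, which ignores the pairing, the change sizes were the same and 2 of the 5 stayed called, Fosl1 and Fosl2, beside 8.96% of all genes called higher and 8.68% lower. Jun then had adjusted p = 0.0501, Fos 0.0563 and Maff 0.145.

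The members did not rise to the same extent in each lymphoma. In 5560, 7 of 9 members had a change over 1, and in 2581 it was 6 and all 9 were higher. In 1467 and 3802 no member had a change over 1, in 1570 only Jun did (1.29) and in 2949 only Fosl2 (1.43). Lymphomas 403, 3594, 3769 and 5766 each had 5. Lymphoma 1467 combined lower Fos, Junb, Maff and Fosb with changes of Jun, Jund, Fosl1, Fosl2 and Batf between 0.00 and 0.20.

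**Figure D3:**
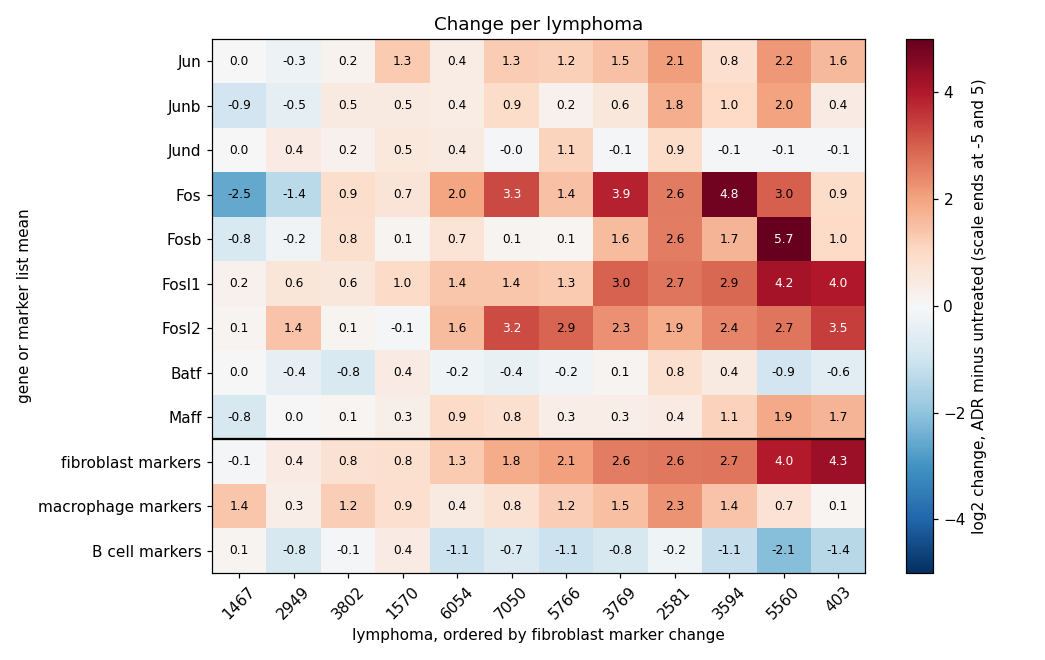
Log2 change of each AP-1 gene and of the mean of 3 marker lists in each lymphoma, ordered from left to right by the fibroblast marker change; red is higher after ADR. Most member rows darken toward the right, where the fibroblast marker change reaches 4.26, while Batf and Jund do not.

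Some members rose in the same lymphomas. Across 12 lymphomas, 27 of 36 pairs of members had a Pearson r above 0. After adjustment over the 36 pairs 12 passed for r, 11 for Spearman rho and 9 for both. How often pairs of other genes reach such values was not computed, so these counts do not set the members apart. The highest were Junb with Fosb (r = 0.846, rho = 0.846, adjusted permutation p = 0.00324 and 0.0133) and Fosl1 with Maff (r = 0.836, rho = 0.902, adjusted permutation p = 0.00558 and 0.0054). Without the 2 lymphomas farthest from the median of the first gene these r were 0.797 and 0.630, and they were 0.631 and 0.551 among the 7 lymphomas whose treated array file was named DOX rather than sen, a difference in naming that the labels do not explain. Jun with Junb had r = 0.817 (rho = 0.734, adjusted permutation p = 0.0065 and 0.0382), 0.684 without 1467 and 2949 and 0.666 in the DOX set. No pair that included Jund or Batf passed; with the other members their r lay between -0.33 and 0.37.

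For Fosl1, Maff, Jun, Fosl2 and Fosb the change was correlated with the fibroblast change by both Pearson r and Spearman rho. Junb passed for r alone and Fos for rho alone. The largest change of Fos (4.81) was in 3594, where the fibroblast change was 2.69. In 403 Fos changed by 0.90 and the fibroblast list by 4.26. The fibroblast list held 29 genes and 28 could be measured. Of these, 23 were called higher and 0 lower, 12 lay above the floor in untreated arrays and 25 after ADR. The list mean ran from 4.26 to 5.02 untreated and from 4.61 to 8.83 after ADR, with changes from -0.10 in 1467 to 4.26 in 403. Col1a1 and Col1a2 had changes of 2.26 and 3.21.

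Of the 9 members Fosl1 had the highest correlation with the fibroblast list. Over 12 lymphomas r was 0.970 (rho = 0.937, adjusted permutation p = 0.00018 and 0.00072, with 1e-05 the smallest p the resamples can give). Without 403 and 1467, the lymphomas farthest from the median marker change, r was 0.959, and among the DOX lymphomas 0.912 (exact permutation p = 0.00952, unadjusted). In the 4 lymphomas whose fibroblast change was under 1, Fosl1 rose by at most 0.97, and in the 6 where it was over 2, by at least 1.31.

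Maff (r = 0.865, rho = 0.881, adjusted permutation p = 0.00198 and 0.00261), Jun (0.805, 0.804, 0.0119 and 0.014) and Fosl2 (0.791, 0.769, 0.0119 and 0.0181) also passed. Without 403 and 1467 their r were 0.756, 0.797 and 0.671, and within the DOX set 0.577, 0.864 and 0.694. Fosb (r = 0.712, rho = 0.790) passed for both, Junb (0.706, 0.657) for r alone and Fos (0.635, 0.685) for rho alone, with adjusted permutation p = 0.0538 for the rho of Junb and 0.0582 for the r of Fos. Without 403 and 1467 these 3 had r of 0.842, 0.827 and 0.761, and within the DOX set 0.653, 0.726 and 0.903. Jund (r = -0.23) and Batf (r = -0.14) did not pass (adjusted permutation p = 0.606 and 0.709), though among the DOX lymphomas Batf had r = 0.839 (exact permutation p = 0.0169). Adjusted p-values here are over 18 relations, 9 with the fibroblast and 9 with the macrophage list. The exact permutation p-values within the DOX set were not adjusted. Such correlations were not rare, since 7.63% of all 18193 genes, the list's own included, had an r of at least 0.706, the lowest that passed, and 26 genes (0.143%) had one at least as high as that of Fosl1. With the collagens alone as the fibroblast measure the r of Junb was 0.652 and did not pass (adjusted permutation p = 0.0513), which left 5 of 9. The 5 lymphomas of the sen naming set were too few for a correlation.

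**Figure D4:**
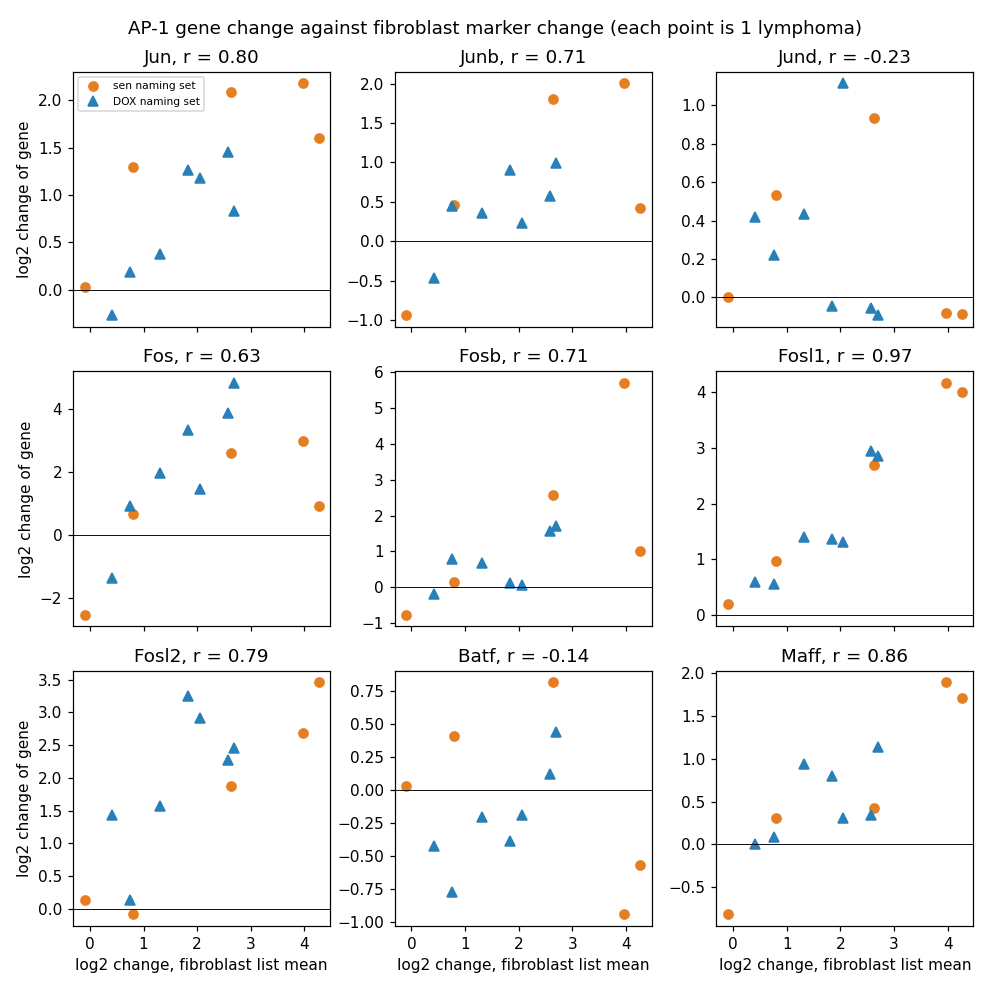
Log2 change of each AP-1 gene against the log2 change of the fibroblast list mean; each point is 1 lymphoma, circles are the sen and triangles the DOX naming set, and r is Pearson's over 12 lymphomas. Fosl1 lies close to a line (r = 0.97), and Batf (r = -0.14) and Jund (r = -0.23) show no such order.

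With the fibroblast list mean of each array as a covariate, a list that holds none of the 9 genes, no member was called. By limma 0 of 9 passed, 0 also at an unadjusted p under 0.05, beside 6.34% of all genes called in that fit (2.65% higher, 3.69% lower). At so low a share 0 of 9 would not be unusual, so the count says little about the members. In the same fit over probe sets 0 of 13 were called (1 at an unadjusted p under 0.05), beside 4.79% of all (1.77% higher, 3.02% lower). The changes were 0.05 for Fosl1 (95% interval -0.31 to 0.42), 0.11 for Jun (-0.39 to 0.61), 0.46 for Fosl2 (-0.32 to 1.23), -0.27 for Fos (-1.93 to 1.38) and -0.33 for Maff (-0.74 to 0.08). Those of Junb and Fosb were -0.26 and -0.61, that of Jund 0.41 and that of Batf -0.04. In the probe-set fit the second Jun, Fosl1, Fosl2 and Jund probe sets were at 0.50, -0.30, -0.59 and -0.20. For Jun (SE 0.24, adjusted p = 0.292 by limma) the value at equal fibroblast signal thus depends on the probe set. The covariate rose in 11 of 12 pairs, so this fit estimates the change at equal fibroblast signal, which only lymphoma 1467 (-0.10) came near in fact. With the collagens alone as the covariate the changes were 0.30 for Fosl1 and 0.25 for Jun. How far the fibroblast signal accounts for the member changes was not tested by these fits. The fits with and without the covariate used the same arrays, so comparing their intervals is not a test of this.

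Macrophage markers rose as well, 11 of 20 called higher and 0 lower, with Adgre1 2.19 and Csf1r 1.92 higher on the log2 scale. The list mean ran from 4.63 to 7.13 untreated and from 5.48 to 7.92 after ADR, and Cd163 and Vsig4 stayed near the floor. Of the 9 members Batf alone passed against the macrophage change (r = 0.661, rho = 0.741, adjusted permutation p = 0.0485 and 0.0223), and 1.68% of all genes had an r at least as high. The r of Batf did not pass after the arrays were centred on their medians (adjusted permutation p = 0.0527). Without 2581 and 403, the lymphomas farthest from the median macrophage change, r was 0.400, and it was 0.443 within the DOX set. For the other 8, r lay between -0.40 and 0.32. With the macrophage mean as the covariate 0 of 9 members were called by limma (4 at an unadjusted p under 0.05, and 0.478% of all genes called). The changes of Fosl1 (2.002, SE 0.75), Fosl2 (2.26, SE 0.67) and Maff (1.12, SE 0.39) were larger than without it. Those of Jun (0.70, SE 0.43) and Fos (0.70, SE 1.13) were smaller. All 5 SEs were larger than without this covariate, so the fit does not set these members apart. B-cell markers were called lower in 5 of 9 cases, Cd79a by 0.80, and their mean changed by -2.15 in 5560 and by 0.40 in 1570. The part of the B-cell decline in the member changes was not tested.

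The genes whose 12 changes were most like those of a called member were looked up among 11358 genes with a mean above the floor, as a description. For Fosl1 they were Col6a1 (r = 0.986), a collagen VI chain, and Loxl1 (r = 0.980), which crosslinks elastin, both in the fibroblast list. Their untreated means of 3.95 and 3.61 are near the floor, as is that of Fosl1 (4.01), so these genes entered the search only through the ADR arrays. For Fos they were Mcoln1 (r = 0.952), a lysosomal ion channel, and Rab8b (r = 0.952), a vesicle transport GTPase. Fosl2 was most like Ugp2 (r = 0.966), which makes UDP-glucose, and Myl12a (r = 0.959), a myosin light chain. Maff was most like Esyt2 (r = 0.954) and Papss1 (r = 0.952), and Jun most like Grina (r = 0.909) and Marchf2 (r = 0.905). None of these 8 belongs to the fibroblast list. Rab8b, Ugp2, Esyt2 and Papss1 were themselves not called (log2 changes of 0.39, 0.31, 0.25 and 0.07).

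The lists around the members are given beside the 13.7% of all genes called higher, the 12.8% called lower and the median change of -0.01. These lists were chosen with earlier results of these data known, so their counts are a description and not a test. Whether AP-1 acts on the listed genes here was not tested. Of 17 measured textbook AP-1 targets 14 were called higher and 0 lower, with a median change of 1.48. Ptgs2, the inducible cyclooxygenase, rose 9.48-fold (5.03 ± 1.46 to 8.27 ± 1.96, SD, n = 12, adjusted p = 0.00186), higher in 10 of 12. Chosen after their values were seen, the collagenase gene Mmp13 rose 6.21-fold, the chemokine gene Ccl2 6.01-fold and the receptor gene Plaur 2.25-fold. Mmp3, Mmp10 and Plau did not pass and had ADR means of 3.53, 4.67 and 3.92. With the fibroblast covariate 0 of 17 targets were called by limma, with a median change of 0.41. In that fit 2.65% of all genes were called higher and 3.69% lower, so 0 of 17 says little about the targets.

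Other bZIP genes that pair with AP-1 proteins were called higher in 5 of 9 measured cases and lower in 0, with a median change of 0.26. Maf, a large Maf factor known in macrophages, rose 3.54-fold (adjusted p = 0.000495) in 12 of 12 lymphomas, and it was the only one of the 9 called with the fibroblast covariate (2.48, adjusted p = 0.00934). Atf3, a stress-induced repressor chosen after its values were seen, rose 1.98-fold (adjusted p = 0.00162) in 12 of 12, with a change of 0.77 with the covariate (adjusted p = 0.205).

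Of 19 measured MAP kinase genes 3 were called higher and 1 lower, a share of higher calls near that of all genes. Map2k3, which activates p38, rose 1.33-fold and Mapk8, the gene of the Jun kinase JNK1, was 1.14-fold lower. The phosphatases and feedback inhibitors that MAP kinase signalling induces were called higher in 8 of 15 cases and lower in 2, with a median change of 0.61. Dusp6, a phosphatase of ERK, rose 3.77-fold (adjusted p = 0.00428) and Dusp2 was 1.37-fold lower. With the covariate none of the 15 was called higher, and Spry1 and Dusp14 were called lower (-0.74 and -1.60).

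Immediate early and SRF genes, the class to which Fos and Junb belong, were called higher in 6 of 20 cases and lower in 1, with a median change of 0.44. Klf4 went from 4.31 to 6.95 (log2 change 2.64, adjusted p = 0.000481) and Elk4 was 1.39-fold lower. Egr1, chosen after its values were seen, had a change of 1.396 (SE 0.75, adjusted p = 0.201 by limma), higher in 8 of 12. With the covariate Klf6 (0.93) and Mrtfb (0.74) were called higher and none lower. For all genes, 482 were called higher and 672 lower in that fit.

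**Figure D5:**
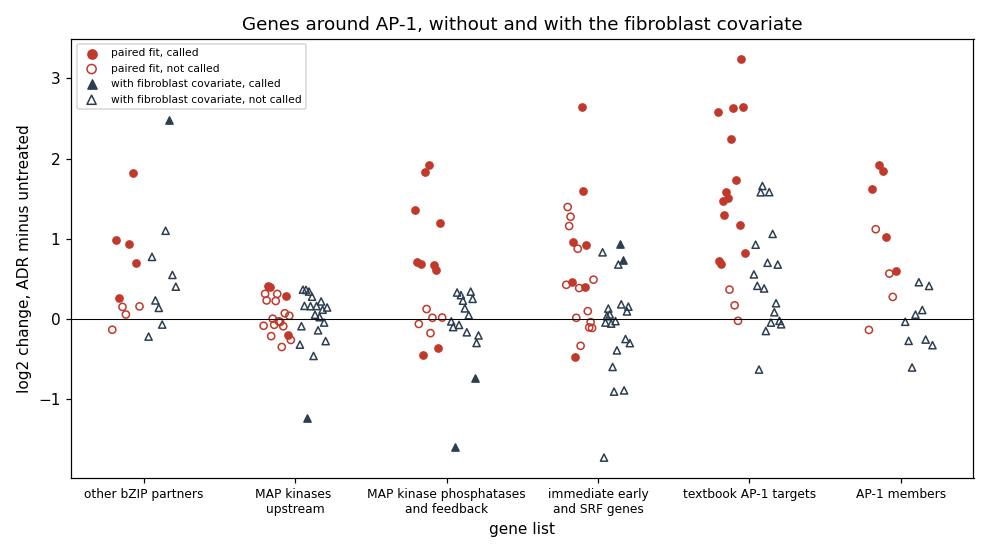
Log2 change of each gene in 6 lists, circles from the paired fit and triangles with the fibroblast list mean as a covariate; filled symbols have an adjusted p under 0.05. In the AP-1 list 5 circles and 0 triangles are filled, and in the target list 14 circles and 0 triangles.

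Results were also computed within each set of file names, sen and DOX. Within the 7 DOX lymphomas Jun, Fos, Fosl1, Fosl2 and Maff were all called, with mean changes of 0.72, 2.13, 1.58, 2.002 and 0.52, beside 17.9% of all genes called (9.06% higher, 8.8% lower). Within the 5 sen lymphomas the changes were 1.44, 0.92, 2.41, 1.61 and 0.71, and none was called by limma (3 of the 9 members at an unadjusted p under 0.05), beside 4.46% of all genes (1.86% higher, 2.6% lower). The difference between the sets was not called for any member (limma interaction, smallest adjusted p = 0.762, 0 at an unadjusted p under 0.05), nor for any of the 18193 genes (0.0%, with 1237 at an unadjusted p under 0.05). For Fos the difference was 1.21 with a 95% interval of -1.18 to 3.61, so these data cannot place it closely.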

How the data were processed

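Biotin-labelled RNA of 24 cultures was read on Affymetrix arrays. The table the authors deposited holds 1 log2 expression value per probe set and array; RMA and Partek are named in the submitters' processing notes, without versions, and the log2 scale was read from the values (minima of 1.97 to 2.14, maxima of 14.06 to 14.36). RMA compresses weak signals, so changes near the floor are understated. Of 45101 probe sets 34945 had 1 gene symbol, and the one with the highest mean over 24 arrays represented each of 18193 genes. Arrays were paired by the lymphoma number in their titles, since the series' design text speaks of matched pairs; within a pair, deviations from the group means correlated at 0.267 to 0.595, above 0.1 in all 12. Changes were tested with limma 3.58.1 in R 4.3.3 (lmFit, eBayes, lymphoma as a block), and correlations with two-sided permutation tests (100000 resamples, all orderings under 10 values) in Python 3.11.15 with numpy 2.4.6 and scipy 1.17.1. P-values measure the spread between 12 lymphomas, whose number limits the precision. Adjusted p-values are from limma over all genes unless stated, or from the family of correlations. The members and gene lists were chosen with earlier results of these data known. Named genes are the members, the called gene with the largest rise and fall in each pathway list, the 2 genes most like each called member, set cell type markers, and others marked as chosen after their values were seen or called with the covariate. Neutrophil markers (3 of 10 called higher) and T and NK cell markers (1 of 10) were also counted. The fits were tested on simulated data.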

Additional observations from a re-analysis of the deposited data

How the results depend on the processing

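The 22 alternatives without a marker covariate concerned pairing, centring, quantile normalization, filter, array weights, variance trend and probe set choice. They also left out lymphomas or naming sets. At gene level 0 of 197 member changes turned direction, 25 lost a call and 4 gained one. Among the other member probe sets, the second Fosl2 one turned direction without 5560. Without the replicate block 2 members and 3210 genes were called, and 4 member probe sets among 5192. With 1 lymphoma left out, the members called higher numbered 3 to 7, beside 11.2% to 14.4% of all genes (3966 to 5165 called in either direction), the member probe sets called higher 5 to 8, beside 9.03% to 11.8%, and those called lower 0 to 1, beside 10.3% to 13.8%. Within the sen set 0 members and 811 genes were called (1 probe set among 1350), and within the DOX set 5176 probe sets. The weaker Jund probe set was called lower (1) after centring, after quantile normalization and without 2581.

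With the macrophage mean as a covariate 0 members and 87 genes were called, and with both marker means 0 of each by limma (1 member and 2236 genes at an unadjusted p under 0.05), where Jun (-0.30), Junb (-0.75), Fos (-1.43), Fosb (-1.20) and Fosl1 (-0.027) lay below 0. The fibroblast covariate in the probe-set fit, added after seeing the data, called 0 member probe sets among 1674. The second Jun, Fosl1 and Fosl2 probe sets were at 0.50, -0.30 and -0.59 there. The second Fosl2 probe set ranged from -0.038 (without 5560) to 0.179 with 1 lymphoma left out and no covariate. With the collagens alone as the covariate Fos was at 0.13, Batf at 0.020, Fosl1 at 0.30 and Jun at 0.25, none of them called. With the whole list and 1 lymphoma left out, calls among all genes ranged from 451 (without 1467) to 1332. Fos ranged from -0.90 to 0.56, Fosl1 from -0.038 to 0.11, Jun from -0.068 to 0.27 and Batf from -0.14 to 0.12. After centring, 0 macrophage relations passed, since that of Batf was lost. The causes were not tested. The filter removed Fosb, so it has no value there.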
